A study of Mus musculus with 6 samples.

Results

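Mitochondrial chaperones and proteases are the nuclear-encoded proteins that fold what enters the organelle and degrade what cannot be folded there. The 10 genes described here were Hspd1, Hspe1, Hspa9, Dnaja3, Trap1, Lonp1, Clpp, Clpx, Yme1l1 and Oma1, taken by gene symbol from a deposited table of 16880 mouse genes, and all 10 were found in it and passed the filter on low counts. RNA had been sequenced from 6 libraries of ATDC5, a mouse chondrogenic cell line, 3 per group. Both groups received IL-1β at 10 ng/mL, an inflammatory cytokine used to model osteoarthritis in culture, and 1 group also received 10 μM NP-G2-044, a small molecule inhibitor of the actin-bundling protein Fascin1, for 24 h according to the methods. The titles name the inhibitor NP-G2-044 and a treatment label names it NP-G2-047. The methods describe primary articular chondrocytes, whereas the labels give the cell line, which is a single line. A group without IL-1β was not analysed here, so every difference below is between IL-1β plus NP-G2-044 and IL-1β alone.

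Proteins cross both mitochondrial membranes unfolded. In the matrix they are pulled in and held by Hspa9 (mortalin), the mitochondrial Hsp70, and are folded inside the barrel of Hspd1 (Hsp60) under its lid Hspe1 (Hsp10). Dnaja3 (Tid1) is a J-domain partner of Hspa9 within the matrix. Trap1 is the mitochondrial Hsp90. Lonp1 and the pair of Clpp (the peptidase) and Clpx (its unfoldase) degrade matrix proteins, while Yme1l1 and Oma1 cut proteins at the inner membrane, among them the fusion protein Opa1. Genes of this kind are known for rising when misfolded protein accumulates in mitochondria, a programme called the mitochondrial unfolded protein response.

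With the inhibitor, the matrix protease Lonp1 rose 3.26-fold, the Hsp70 Hspa9 rose 2.44-fold, its partner Dnaja3 rose 2.26-fold and the peptidase Clpp rose 1.98-fold. The chaperonin genes Hspe1 and Hspd1 rose less, 1.38-fold and 1.17-fold, and Trap1 rose 1.08-fold. Yme1l1 fell to 0.83 of its level with IL-1β alone. Clpx and Oma1 did not pass the test. These folds come from edgeR's quasi-likelihood test on read counts, and Benjamini-Hochberg adjustment of p ran over all 11983 genes that passed a filter on low counts. At an adjusted p below 0.05, 7 of the 10 members were higher and 1 was lower with the inhibitor, against 40.2% and 39.8% of all tested genes. A log2 fold change above 1 in size was also passed by 3 members, all higher, against 6.48% of tested genes higher and 10.1% lower past both cutoffs. In normalised counts the 2 groups did not overlap for 8 of the 10 members, a share near the 80.8% of all tested genes, so the lack of overlap is no feature of the members. The median log2 fold change was 0.35 over the members and 0.00185 over all tested genes.

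The start regions of the genes are shown first, since Hspd1 and Hspe1 lie head to head and since Lonp1 rose most while the partners Clpp and Clpx parted. The sequences are from RefSeq windows of 250 bases before to 50 bases after each annotated start, on GRCm38.p6, the assembly that mm10 names. Of the 10 members, 9 had such a window, with 10 windows in all, and Hspa9 had none. Each is written 5′ to 3′ on the strand given, with every match to 6 short motifs in capitals. Of the 2 annotated Hspd1 starts, 1 lies before the Hspe1 start and the other inside the Hspe1 gene. The stretch between the Hspe1 start and the Hspd1 start before it (chr1:55087933-55088147, plus strand, 215 bases) lies in windows of both genes. The other 3 are the 250 bases before the start used for the window of Lonp1 (chr17:56626904-56627153, minus strand), Clpp (chr17:56990014-56990263, plus strand) and Clpx (chr9:65294010-65294259, plus strand). The Clpx gene span given below begins at 65294251, so the last bases printed for Clpx lie within it. The Yme1l1 window (23156255 to 23156554) lies wholly inside its gene span, which begins at 23155442.
Hspd1-Hspe1: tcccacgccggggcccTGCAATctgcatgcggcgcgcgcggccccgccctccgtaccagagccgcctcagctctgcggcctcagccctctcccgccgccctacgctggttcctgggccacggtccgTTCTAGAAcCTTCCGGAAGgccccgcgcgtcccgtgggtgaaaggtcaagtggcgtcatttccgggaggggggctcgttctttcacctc
Lonp1: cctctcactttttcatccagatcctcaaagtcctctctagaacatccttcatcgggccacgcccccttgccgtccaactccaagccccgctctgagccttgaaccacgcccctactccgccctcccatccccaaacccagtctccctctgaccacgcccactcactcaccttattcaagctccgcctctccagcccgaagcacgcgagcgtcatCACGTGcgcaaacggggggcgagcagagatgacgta
Clpp: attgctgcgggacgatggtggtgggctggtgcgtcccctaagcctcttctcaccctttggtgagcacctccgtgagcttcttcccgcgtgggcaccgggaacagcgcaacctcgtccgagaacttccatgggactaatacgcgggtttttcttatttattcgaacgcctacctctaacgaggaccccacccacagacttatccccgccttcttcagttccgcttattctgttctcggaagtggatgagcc
Clpx: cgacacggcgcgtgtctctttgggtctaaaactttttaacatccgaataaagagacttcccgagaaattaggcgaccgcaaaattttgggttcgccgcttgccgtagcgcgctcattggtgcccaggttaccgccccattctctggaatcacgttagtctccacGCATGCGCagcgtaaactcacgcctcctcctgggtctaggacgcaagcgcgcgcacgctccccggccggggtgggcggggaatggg

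The motifs were searched on both strands. A core of the sites bound by CHOP with C/EBP (TGCAAT) was found in the windows of 2 members, Hspd1 and Hspe1, which is the same site in their shared stretch, and in 8.4% of 32851 windows of the same length. The heat shock element core TTCNNGAA, which reads the same on both strands, was found for Hspd1, Hspe1 and Clpp of the 9 members with a window, and in 8.52% of windows. The ETS site CCGGAAG was found for Clpp, Dnaja3, Hspd1, Hspe1 and Yme1l1, and in 8.86% of windows. The heat shock and ETS matches of Hspd1 and Hspe1 are also the same sites in their shared stretch, so the 2 genes do not hold them separately. In the shared stretch and in Clpp, where both matches lie after the start and are not shown, the ETS site overlaps a heat shock core. The E-box CACGTG was found for Lonp1 and for the Hspd1 start inside Hspe1, and in 7.15% of windows. The nuclear respiratory factor core GCATGCGC was found for Clpx, and in 2.71% of windows. The composite ATF4 element TGATGNAA was found in no member window, and in 3.97% of all windows. Lonp1 and Clpx therefore held 1 matched motif each, of different kinds, and no motif was common to all of Lonp1, Clpp and Dnaja3, which rose the most among the members with a window. A match is a run of letters and not a bound site.

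The values rest on estimated read counts and on TPM, both deposited by the authors for each gene and library. Summed over genes, each IL-1β library held 16615824 to 16878164 reads, and each inhibitor library 17529844 to 17735860. All 60 member counts were whole numbers. TPM is a transcript level scaled for gene length and for the library, and levels are compared between genes only on that scale.

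Among the chaperones, the Hsp70 gene Hspa9 (chr18:34937414-34954351, minus strand) stood at 246, 242 and 249 TPM with the cytokine alone and reached 593, 585 and 579 TPM with NP-G2-044. The groups were far apart, with means of 246 ± 3.33 and 585 ± 7.19 TPM (SD, n = 3 each). The rise was 1.29 on the log2 scale (standard error 0.0271, adjusted p = 1.03e-41 in edgeR's quasi-likelihood test), from 6992 to 7338 reads per library with IL-1β and 18430 to 18582 with the inhibitor. By log2 fold change it ranked 481 of the 11983 tested genes. GENCODE vM21 names 1 Hspa9 pseudogene, which is no row of the table.

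Dnaja3 (chr16:4684070-4707695, plus strand), a J-domain protein that stimulates Hspa9, was at 30.6, 32.8 and 32.8 TPM with IL-1β and at 73.5, 72.4 and 66.1 TPM with the inhibitor. All inhibitor libraries lay above all IL-1β libraries, with means of 32.1 ± 1.26 and 70.6 ± 3.98 TPM (SD, n = 3 each). On the log2 scale this was a rise of 1.18, with a standard error of 0.0422 and an adjusted p of 4.01e-31 in edgeR's test. Dnaja3 has 313 exon bases in common with Coro7 on the opposite strand or with Vasn on the same strand in the GENCODE vM21 annotation. The sources used here do not say whether reads were counted by strand. Coro7 was itself higher with the inhibitor, at 5.48 ± 0.309 and 16.1 ± 0.314 TPM, and Vasn was lower, at 21.9 ± 0.543 and 15.2 ± 1.25 TPM (SD, n = 3 each). Their part in the Dnaja3 counts was not tested.

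Trap1 (chr16:4039971-4077840, minus strand) was at 76.6, 76.9 and 74.6 TPM with IL-1β and at 80.6, 82.7 and 78.4 TPM with the inhibitor. The groups did not overlap, but the gap between the highest IL-1β library and the lowest inhibitor library was small. The log2 fold change of 0.11 (standard error 0.0357, 95% interval 0.0427 to 0.186, adjusted p = 0.0033 in edgeR's test) was the smallest of those that passed. Its adjusted p lay between 0.00225 and 0.0353 over the 15 alternative analyses. Trap1 has 54 exon bases in common with Dnase1 on the opposite strand in GENCODE vM21, and their part in its counts was not tested. Trap1 and Hspa9, both ATP-driven matrix chaperones, thus differed widely in how far they moved.

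The chaperonin genes were the most abundant members with IL-1β alone. Hspd1 (chr1:55077833-55088243, minus strand), the barrel, stood at 518, 524 and 533 TPM with IL-1β and at 620.2, 594 and 598 TPM with the inhibitor. Hspe1 (chr1:55088148-55091317, plus strand), the lid, stood at 475, 451 and 427 TPM with IL-1β and at 616, 605 and 618 TPM with the inhibitor. In both genes every inhibitor library was above every IL-1β library. The log2 fold change was 0.23 for Hspd1 (standard error 0.0265, adjusted p = 3.02e-11) and 0.46 for Hspe1 (standard error 0.0345, adjusted p = 5.81e-16 in edgeR's test). Exons of the 2 genes overlap on opposite strands over 112 bases. GENCODE vM21 names 5 pseudogenes for Hspd1 and 6 for Hspe1, none of them a row of the table, so reads from near-identical copies could be included and the levels of both genes are uncertain to that extent.

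Set beside each other in TPM, the chaperonin partners drew level, which depends on the gene lengths used. The length implied by reads, FPKM and library total was 496 bases for Hspe1 with IL-1β and 490 with the inhibitor. Its coding transcript has 774 bases in GENCODE vM21. For Hspd1 the implied length was 2063 and 2056 bases, against 2423 in its longest coding transcript. The ratio of Hspd1 to Hspe1 in TPM was 1.09, 1.16 and 1.25 without the inhibitor and 1.01, 0.981 and 0.967 with it, means of 1.17 ± 0.0783 and 0.985 ± 0.0207 (SD, n = 3 each). The ranges did not overlap. An exact permutation test of the log2 ratio, two-sided, gave p = 0.1, the smallest that 3 libraries against 3 allow (adjusted p = 0.133 over the 4 ratios compared). With the inhibitor the TPM of Hspd1 and Hspe1 overlapped between libraries, and Hspa9 lay just below Hspd1, at 593 TPM in its highest library against 594 TPM in the lowest of Hspd1.

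**Figure D1:**
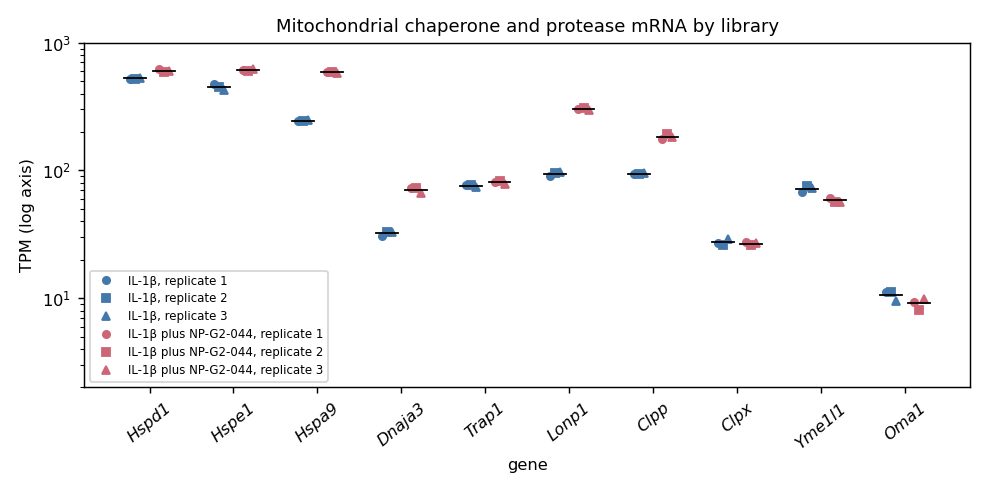
TPM of the 10 genes in each of the 6 libraries, on a log axis. Each point is 1 library, with a marker shape for its replicate number, and black lines are group means. Hspa9, Dnaja3, Lonp1 and Clpp show wide gaps between the groups, with Lonp1 moving from 94.6 to 302 TPM, while the points of Clpx and Oma1 overlap.

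Of the matrix proteases, Lonp1 (chr17:56614297-56626903, minus strand), an ATP-driven protease that clears oxidised and misfolded proteins and also degrades the mitochondrial DNA packaging factor Tfam, moved most. It was at 91.15, 96.2 and 96.4 TPM with IL-1β and at 301, 305 and 299 TPM with the inhibitor. The groups were far apart, at 94.6 ± 2.98 and 302 ± 3.35 TPM (SD, n = 3 each). The rise of 1.71 on the log2 scale had a standard error of 0.0293 (adjusted p = 7.31e-46 in edgeR's test), and it ranged from 1.66 to 1.72 over the alternatives. By log2 fold change it ranked 276 of the 11983 tested genes.

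Clpp (chr17:56990264-56996371, plus strand), the peptidase chamber, was at 93.65, 93.8 and 96.2 TPM with IL-1β, the same range as Lonp1, and at 176, 192 and 183 TPM with the inhibitor. Every inhibitor library was well above every IL-1β library, with means of 94.6 ± 1.41 and 184 ± 7.77 TPM (SD, n = 3 each). The rise on the log2 scale was 0.99 (standard error 0.04, 95% interval 0.905 to 1.07, adjusted p = 1.04e-28 in edgeR's test), just under the cutoff of 1. Without replicate 1 of the inhibitor libraries it was 1.02, which would make Clpp a 4th member past both cutoffs.

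Clpx (chr9:65294251-65330658, plus strand), the ring that unfolds proteins and feeds them to Clpp, was at 27.3, 25.9 and 28.9 TPM with IL-1β and at 27.5, 26.0 and 26.8 TPM with the inhibitor. The groups overlapped. The difference on the log2 scale was 0.00028 (standard error 0.0486, adjusted p = 0.996 in edgeR's test), with a 95% interval from −0.0972 to 0.0978, far below the change of Clpp. The ratio of Clpp to Clpx in TPM was 3.44, 3.62 and 3.33 with IL-1β and 6.42, 7.38 and 6.82 with the inhibitor. The 2 partners of 1 complex therefore parted by 0.99 on the log2 scale, with no overlap between the groups (exact permutation test, two-sided, p = 0.1, the smallest possible; adjusted p = 0.133 over 4 ratios).

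At the inner membrane, Yme1l1 (chr2:23155442-23199260, plus strand), the catalytic subunit of the i-AAA protease, which faces the intermembrane space, was at 68.1, 74.9 and 72.2 TPM with IL-1β and at 61.1, 56.7 and 56.8 TPM with the inhibitor. It was the member that fell, with all inhibitor libraries below all IL-1β libraries and means of 71.7 ± 3.43 and 58.2 ± 2.50 TPM (SD, n = 3 each). The difference on the log2 scale was −0.27 (standard error 0.0322, adjusted p = 1.25e-10 in edgeR's test).

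Oma1 (chr4:103311875-103371869, plus strand), a metalloprotease that is activated when the membrane potential is lost, was the least abundant member, at 11.2, 11.1 and 9.45 TPM with IL-1β and at 9.29, 8.09 and 9.91 TPM with the inhibitor. It had 221, 213 and 185 reads with IL-1β and 219, 205 and 246 with the inhibitor, and the groups overlapped on both scales. On counts the difference was 0.04 on the log2 scale (standard error 0.09, adjusted p = 0.673 in edgeR's test), with a 95% interval from −0.138 to 0.223, whereas on log2(TPM + 1) it was −0.20 (adjusted p = 0.0534 in limma; 0.0534 to 0.877 over all alternatives). The gene length behind the normalised values also differed between the groups, which counts do not take in. The length implied by reads, FPKM and library total was 1845, 1844 and 1836 bases without the inhibitor and 2096, 2202 and 2154 bases with it, 16.8% longer (exact permutation test, two-sided, p = 0.1, the smallest possible; adjusted p = 0.111 over the 10 members). For the other 9 members it moved by 1.13% or less in size. Of 9456 genes with at least 100 reads and 1 FPKM in every library, 87 (0.92%) moved by more than 10% either way. The ratio of Yme1l1 to Oma1 in TPM, 6.83 ± 0.774 with IL-1β and 6.44 ± 0.653 with the inhibitor (SD, n = 3 each), overlapped between the groups (exact permutation p = 0.5). On read counts, where no gene length enters, the log2 ratio differed by −0.31 (inhibitor minus IL-1β alone) and the groups did not overlap (exact permutation p = 0.1, the smallest possible).

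**Figure D2:**
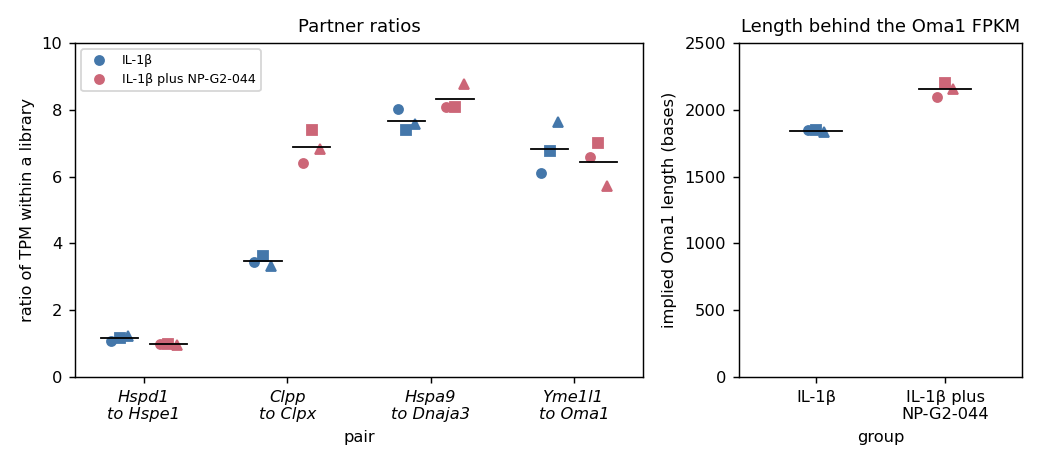
Left, ratio of TPM within each library for 4 pairs of members, and right, the length in bases implied for Oma1 by its reads and FPKM. Points are libraries with a marker shape for each replicate number, and black lines are group means. The Clpp to Clpx ratio goes from 3.46 to 6.87 between the group means and the implied Oma1 length from 1842 to 2151 bases.

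The fourth pair, Hspa9 and its partner Dnaja3, moved nearly together. Their ratio in TPM was 8.02, 7.38 and 7.58 with IL-1β and 8.07, 8.08 and 8.76 with the inhibitor, so the ranges only just failed to meet (log2 difference 0.12, exact permutation p = 0.1, adjusted p = 0.133 over 4 ratios). Summed over the 10 members, the level was 1628 ± 8.46 TPM with IL-1β and 2533 ± 22.9 TPM with the inhibitor (SD, n = 3 each), 1.56 times as much. The matrix proteases together went from 217 ± 4.72 to 512 ± 9.57 TPM and the inner membrane proteases from 82.3 ± 3.40 to 67.3 ± 2.82 TPM. The chaperonin pair went from 976 ± 16.0 to 1217 ± 18.5 TPM. These sums describe the members and were not tested.

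The same chaperone families also work in the cytosol and the endoplasmic reticulum (ER), and a list of 19 such paralogues was compared. Of 18 tested, 8 were higher and 5 lower at an adjusted p below 0.05, with a median log2 fold change of 0.02. For all tested genes the shares were 40.2% higher and 39.8% lower, so list counts near these shares are no feature of a list. Hspa5 (BiP), the Hsp70 of the ER, rose by 1.81 on the log2 scale, from 256 ± 4.92 to 879 ± 14.6 TPM, and the cytosolic J-domain protein gene Dnaja4 rose by 1.42, from 5.26 ± 0.164 to 13.8 ± 0.17 TPM (SD, n = 3 each). The constitutive cytosolic Hsp90 gene Hsp90ab1 changed by −0.40 and the chaperonin subunit gene Cct3 by −0.22. Hspa8, the constitutive cytosolic Hsp70, changed by −0.17 (adjusted p = 5.24e-08 in edgeR's test) and is named here after its value was seen. Among the 4 Hsp70 genes Hspa9, Hspa5, Hspa8 and Hspa4, the share of Hspa9 in their summed TPM was 6.01% to 6.24% with IL-1β and 12.7% to 13.1% with the inhibitor, a description added after the values were seen.

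**Figure D3:**
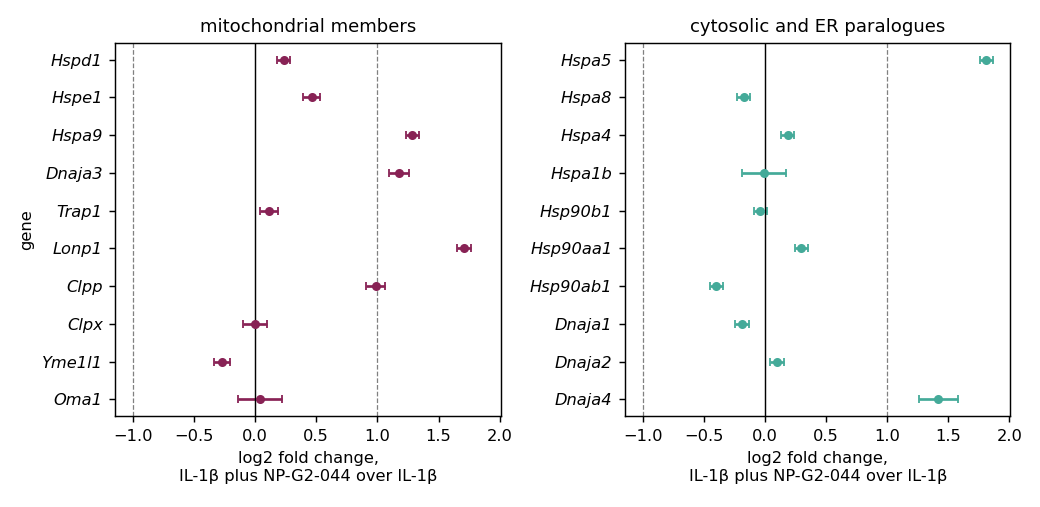
Log2 fold change from edgeR, positive where NP-G2-044 libraries were higher, with its 95% interval as the bar, for the 10 mitochondrial members (left) and 10 cytosolic or ER paralogues of Hspa9, Trap1 and Dnaja3 (right). Dashed lines mark a log2 fold change of 1 in size, which Lonp1, Hspa9 and Dnaja3 pass on the left and Hspa5 and Dnaja4 on the right.

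The other genes of mitochondrial protein quality control were taken as 2 lists, to be read against 40.2% higher and 39.8% lower among all tested genes. In a list of 21 further chaperones, co-chaperones and proteases, all tested, 12 were higher and 4 lower, and their median was 0.14. Past both cutoffs 2 were higher, against 6.48% of all tested genes higher and 10.1% lower. Hscb, the co-chaperone with which Hspa9 serves iron-sulfur cluster assembly, rose by 1.07 on the log2 scale (72.2 ± 4.51 to 149.7 ± 7.15 TPM), and Immp2l, a subunit of the inner membrane peptidase, rose by 1.12 from a low level (3.70 ± 0.142 to 8.16 ± 0.753 TPM; SD, n = 3 each). Immp1l, the other subunit of that peptidase, changed by −0.49 and the metalloprotease gene Atp23 by −0.44. In a list of 26 import genes, which encode the outer and inner membrane translocases and the intermembrane space relay, 16 were higher and 4 lower with a median of 0.21. Chchd4, the oxidoreductase of that relay, rose by 1.06 and Timm10, a small carrier chaperone, by 0.77, whereas Tomm7 changed by −0.53 and Timm17b by −0.42.

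A list of 17 genes of mitochondrial stress signalling and the integrated stress response stood higher. Of 15 tested, 12 were higher and 1 was lower, their median was 1.52, and 11 of the higher genes passed both cutoffs. Among all tested genes 40.2% were higher, 39.8% lower and 6.48% higher past both cutoffs. The list was chosen with earlier results of these data known, so its high standing is no independent result. Trib3, a pseudokinase, rose by 5.06 on the log2 scale (7.09 ± 0.635 to 232 ± 1.80 TPM), and Ddit3, which encodes CHOP, rose by 4.05 (65.4 ± 3.95 to 1226 ± 40.1 TPM; SD, n = 3 each). Atf5, which encodes a transcription factor linked to the mitochondrial unfolded protein response, rose by 1.48, from 15.2 ± 1.11 to 41.4 ± 0.935 TPM, and is named after its value was seen. Dele1, whose protein is cut by Oma1 to signal mitochondrial stress, was the gene that fell, by 0.13 (adjusted p = 0.0275 in edgeR's test). It was not called by DESeq2, nor when replicate 1 or 3 of either group was left out.

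Genes of mitochondrial mass and biogenesis, which include regulators as well as parts of the organelle, showed no common direction. Of 20 such genes 10 were higher and 6 lower, with a median of 0.03, and 2 were higher past both cutoffs. The shares among all tested genes were 40.2% and 39.8%, and past both cutoffs 6.48% higher and 10.1% lower. How much mitochondrial material the cells held was not measured here. The coactivator genes Ppargc1a and Ppargc1b rose by 2.75 and 1.13 on the log2 scale but from very low levels, 0.0767 ± 0.0153 and 0.273 ± 0.0907 TPM (SD, n = 3 each). Atp5a1, the alpha subunit of ATP synthase, changed by −0.69 and the adenine nucleotide carrier gene Slc25a4 by −0.46. On log2(TPM + 1), limma called 6 genes of the list higher instead of 10. Of 12 genes of mitochondrial dynamics and inner membrane protease targets, 9 were higher and 3 lower, none past the fold cutoff, with a median of 0.24. The phosphatase gene Pgam5 rose by 0.58 and the fission adaptor gene Mief2 by 0.56, whereas Pink1, a kinase that marks damaged mitochondria, changed by −0.61 and Fis1 by −0.18.

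**Figure D4:**
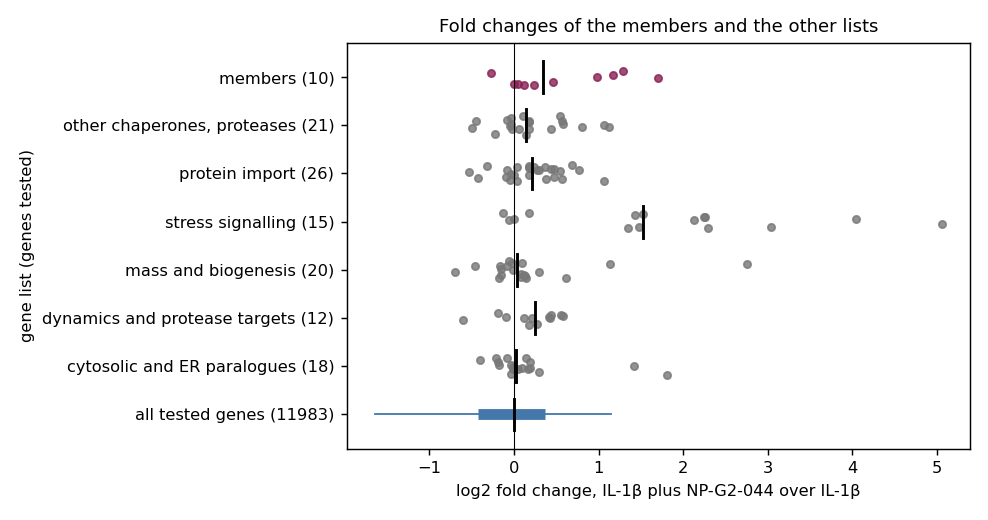
Log2 fold change of each tested gene in the members and in 6 other lists, with the number tested in brackets and the list median as a black line. The lowest row gives all 11983 tested genes, with a thick bar from the 25th to the 75th percentile (−0.43 to 0.36) and a thin line from the 5th to the 95th (−1.64 to 1.15). The stress signalling list lies farthest to the right, with a median of 1.52. The members and all lists were chosen with earlier results of these data known.

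The labelled cell type was checked against markers. Of 9 chondrocyte markers 2, Sox9 and Prg4, reached a mean of 1 TPM. The summed markers were at 6.71 to 8.13 TPM with IL-1β and 19.1 to 20.8 TPM with the inhibitor, a sum made almost wholly of Sox9 and Prg4. Col2a1 went the other way, with 12, 10 and 10 reads against 1, 3 and 2. Matn1 had 0 reads, and Acan and Col9a1 were not among the genes listed under those symbols. The 6 fibroblast markers, nearly all Col1a2, summed to 1101 to 1148 TPM with IL-1β and 335.9 to 349.6 TPM with the inhibitor, with Thy1 at 0 reads, while Pdgfra among them stood at 2.16 to 2.69 TPM with IL-1β and at 8.49 to 9.03 TPM with the inhibitor. Of the macrophage markers, Cd68 had 10.6 to 14.0 TPM against 124 to 135 TPM with the inhibitor, while Ptprc had 0 reads in all libraries. Summed over 3 libraries, Csf1r had 25 reads without the inhibitor and 17 with it, and Lyz2 had 9 and 3. Adgre1 was not among the genes listed under that symbol. Endothelial, muscle and epithelial markers each summed to at most 1.25 TPM in any library. Osteoblast and adipocyte markers summed to at most 4.55 and 5.14 TPM with IL-1β and at most 0.53 and 0.81 TPM with the inhibitor. These shifts moved with the treatment, and their part in the changes of the mitochondrial genes was not tested. In bulk RNA, a change in RNA per cell and a change in the make-up of the cells cannot be told apart.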

How the data were processed

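RNA from 6 ATDC5 libraries, 3 with IL-1β and 3 with IL-1β plus NP-G2-044, was extracted and sequenced by BGI. The submitters' processing notes name cutadapt, HISAT2 2.0, StringTie and mm10. Neither the read counter nor its annotation is named in the sources used here. The deposited values were expected counts (estimated reads per gene, not normalized), TPM and FPKM (both scaled by the authors for length and library), beside the authors' group means, which were not used. Between 10.17% and 11.06% of counts in a library were not whole.

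Rounded counts that passed filterByExpr (min.count 10) were scaled by TMM (factors 0.9975 to 1.002). Groups were compared in edgeR 4.0.16 (R 4.3.3) by its robust quasi-likelihood test, 3 libraries against 3, without covariates. The standard error is the log2 fold change over the square root of F. Genes were called at an adjusted p below 0.05, and past both cutoffs where the log2 fold change also exceeded 1 in size. The biological coefficient of variation was 2.33%, so small changes pass the test. Squared differences between 2 libraries of a group were 1.54 to 2.39 times sampling noise, and 133 to 135.5 times between groups. No pair looked like 1 library deposited in duplicate, and the methods call the libraries biological replicates, while nothing in the labels says that cultures were separate, so p-values may measure technical spread only. The implied length is reads over FPKM and library total. Ratios within pairs were compared by exact permutation tests in scipy. Yme1l1 and Oma1 are separate proteases, so their ratio says nothing about the make-up of a complex. The fit was also run on simulated counts with the same spread for all genes and few changed genes, unlike these data. That run does not give the error rates here.

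The members and lists were chosen with earlier results of these data known. From each further list, the 2 highest and 2 lowest genes past the test were named. Alternatives were DESeq2 1.42.0, limma 3.58.1 (voom, log2(TPM + 1), log2(TPM + 0.1)), DESeq2 size factors or library size in edgeR, no filter, a filter of 10 CPM in 3 libraries, a replicate block and each library left out. Gene positions are from RefSeq on GRCm38.p6, matched by Entrez gene ID.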

Additional observations from a re-analysis of the deposited data

How the results depend on the processing

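Of 150 member values under 15 alternatives, 137 kept their direction and their side of the adjusted p threshold and 13 changed sign, all of Clpx or Oma1, whose main values were not called and stayed uncalled. For Clpx the log2 fold change was −0.0050 with DESeq2 size factors, −0.0018 with library size alone, −0.0049 in DESeq2, −0.029 on log2(TPM + 1), −0.030 on log2(TPM + 0.1) and −0.027 with the stricter filter, and it ranged from −0.045 to 0.0368 with each library left out. For Oma1 it was −0.20 on log2(TPM + 1), −0.21 on log2(TPM + 0.1) and −0.0379 to 0.106 with each library left out. Among 276 counts and ratios within pairs, 268 moved by less than the limits set and 8 moved further. For a ratio the limit was the pooled SD of its log2 values within groups. A count could change by up to a set factor and still be among the 268. With the stricter filter the paralogues called lower went from 5 to 7. The mass and biogenesis genes called higher went from 10 to 7 there, and both stayed within the limit. Neither FPKM in place of TPM nor the replicate block could move a ratio beyond rounding. Within a library FPKM and TPM differ by a common factor, and the mean difference within replicate numbers equals the difference of group means. Some of the 268 were thus fixed in advance. The 1 stress signalling gene called lower, Dele1, became 0 in DESeq2 and 0 to 1 with each library left out. The mass and biogenesis genes called higher became 6 on log2(TPM + 1) and 6 on log2(TPM + 0.1). The log2 difference of the Yme1l1 to Oma1 ratio, −0.085 in TPM, became −0.31 on read counts (exact permutation p = 0.1, against 0.5 in TPM) and ranged from −0.164 to −0.0012 with each library left out. The implied Oma1 length was 15.4% to 18.3% longer with each library left out, an alternative chosen after seeing the data. Same-numbered libraries did not deviate together (correlations of −0.0934, −0.0236 and 0.0259), so the numbers are read as names only, and with the replicate block 7 members were higher and 1 lower as before, while all calls numbered 9498 instead of 9584. The median log2 fold change of all tested genes lay between −0.0315 and 0.00892 under the alternatives. Depth limits Oma1 most, at 185 to 246 reads a library.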

Other observations

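Gdf15 and Fgf21, which encode secreted hormones released in mitochondrial stress, were too low to be tested. Reads of Gdf15 numbered 0, 1 and 1 with IL-1β alone against 6, 7 and 3 with the inhibitor. Fgf21 had 1, 0 and 0 reads against 2, 1 and 1. The stress-inducible cytosolic Hsp70 genes Hspa1a and Hspa1b are near-identical copies between which reads are divided, so their values are uncertain. Hspa1b levels were 7.74, 7.83 and 7.91 TPM without and 7.76, 6.65 and 8.46 TPM with the inhibitor, overlapping between the groups, and Hspa1a stayed at or below 0.37 TPM in every library. Fscn1, whose protein the inhibitor binds, stood at 616 ± 9.46 TPM without the inhibitor and 252 ± 2.47 TPM with it (SD, n = 3 each).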
